A study of Mus musculus with 2 samples.

Results

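The 10 genes described here encode the NF-kappaB transcription factors and proteins that regulate them. The factors are Nfkb1, Nfkb2, Rel, Rela and Relb. The regulators are the inhibitor family members Nfkbia, Nfkbie and Bcl3 and the ubiquitin-modifying Tnfaip3 and Birc3. All 10 genes were chosen by gene name and found by Entrez identifier among the 27179 genes of the count table, where all 10 were present. RNA sequencing was done on ALL211, a primary T-cell acute lymphoblastic leukemia (T-ALL) of the mouse with the genotype Vav-tTA;TRE-GFP-shIkaros, in which a tetracycline-controlled transactivator under the blood-cell promoter Vav drives GFP together with a short hairpin RNA against Ikaros, a lymphoid transcription factor. Doxycycline (Dox) shuts the hairpin off, so the comparison asks how transcript levels differ once endogenous Ikaros returns.

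The Dox group (1 library) came from leukemic recipient mice given Dox for 3 days, sorted from the spleen as GFPmid cells. The untreated group (1 library) came from recipients of the same leukemia, sorted from the spleen as GFPhigh cells. Both groups carry the transactivator and the hairpin, and both derive from a single primary leukemia; the labels used here give no age, sex or strain of the recipients. The series design names 2 mice per condition, whereas the labels give 1 sample each, and whether RNA was pooled is not given. Each difference therefore has no replicate check, no p-value is given, and treatment, sorting gate and mouse cannot be told apart.

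NF-kappaB factors are dimers of Rel family proteins that IkappaB inhibitors hold in the cytoplasm. Signals from antigen, cytokine and innate receptors activate the IKK kinase complex, which marks IkappaB for destruction and lets the dimers enter the nucleus, and a slower arm, run by the kinase NIK, releases Relb together with Nfkb2. Several inhibitors are themselves NF-kappaB target genes, so the pathway restrains itself, and in developing T cells it acts downstream of the pre-T-cell and T-cell receptors. What follows concerns transcripts only, whereas the activity of the factors depends largely on the location and stability of the proteins.

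Promoters of the genes are shown first because the kappaB element, the DNA site that Rel dimers bind, lies in several of them. The windows run from 250 bases before to 50 after an annotated start site and are taken from RefSeq (GRCm38.p6), where 8 of the 10 genes had an entry; Nfkb1 and Relb had none. The kappaB consensus, a degenerate element of 10 bases searched on both strands with overlapping matches counted, was found in at least 1 window of 6 of the 8 genes. Among all 27025 genes with a window, 9.55% had a match, and among the 9305 of them that were measured here, 12.1%. Windows without a match were those of Rela and Birc3. The 5 printed below are those of Rel (chr11:23770920-23771219, minus strand), Bcl3 (chr7:19822706-19823005, minus strand), Tnfaip3 (first of 2 start sites, chr10:19015361-19015660, minus strand), Nfkbia (chr12:55492598-55492897, minus strand) and Nfkb2 (first of 3 start sites, chr19:46304487-46304786, plus strand). They run 5′ to 3′ along the gene, with every kappaB match in capitals.
Rel: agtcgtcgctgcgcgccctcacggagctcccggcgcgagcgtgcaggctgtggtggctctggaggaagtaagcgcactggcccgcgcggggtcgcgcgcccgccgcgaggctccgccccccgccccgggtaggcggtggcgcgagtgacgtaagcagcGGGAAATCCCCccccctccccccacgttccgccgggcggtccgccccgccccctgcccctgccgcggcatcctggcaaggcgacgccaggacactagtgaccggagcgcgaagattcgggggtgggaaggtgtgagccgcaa
Bcl3: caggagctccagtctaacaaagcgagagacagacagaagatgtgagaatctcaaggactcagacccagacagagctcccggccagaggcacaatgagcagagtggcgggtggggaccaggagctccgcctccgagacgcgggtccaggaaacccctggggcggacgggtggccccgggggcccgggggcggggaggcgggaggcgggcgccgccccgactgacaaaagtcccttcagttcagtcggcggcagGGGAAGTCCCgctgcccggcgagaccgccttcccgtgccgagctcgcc
Tnfaip3: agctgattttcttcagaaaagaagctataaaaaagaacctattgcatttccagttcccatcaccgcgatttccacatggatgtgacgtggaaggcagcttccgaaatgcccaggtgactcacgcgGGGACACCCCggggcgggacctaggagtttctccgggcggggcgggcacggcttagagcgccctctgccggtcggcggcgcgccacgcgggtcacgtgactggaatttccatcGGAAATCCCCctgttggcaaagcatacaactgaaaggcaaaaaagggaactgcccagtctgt
Nfkbia: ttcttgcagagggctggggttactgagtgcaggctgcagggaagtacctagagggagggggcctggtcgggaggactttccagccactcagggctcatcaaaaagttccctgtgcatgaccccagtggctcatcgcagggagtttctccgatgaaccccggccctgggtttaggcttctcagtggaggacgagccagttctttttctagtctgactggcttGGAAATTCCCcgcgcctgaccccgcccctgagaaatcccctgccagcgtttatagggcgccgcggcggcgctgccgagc
Nfkb2: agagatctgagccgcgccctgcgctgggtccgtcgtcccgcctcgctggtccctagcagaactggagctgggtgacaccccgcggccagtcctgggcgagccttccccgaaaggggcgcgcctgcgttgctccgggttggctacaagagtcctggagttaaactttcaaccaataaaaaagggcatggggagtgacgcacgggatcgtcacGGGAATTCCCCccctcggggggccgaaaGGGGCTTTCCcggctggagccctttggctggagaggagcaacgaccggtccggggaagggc
Counted from the start site, Rel held overlapping matches from base -92 to -82, Bcl3 a match from base 3 to 12, and Nfkbia a match from base -29 to -20. Tnfaip3 held a match at -125 to -116 and another at -12 to -3, and Nfkb2 overlapping matches from -39 to -29 and a further match at -11 to -2. The unprinted Nfkbie window (chr17:45555450-45555749, plus strand) held 1 match, at -106 to -97. A match describes the letters of the window and does not show that a factor bound there.

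The Dox library held 16484613 counts over 15995 genes and the untreated library 16960042 counts over 15487 genes, of which the 10 genes took 15262 counts in the Dox library and 11674 in the untreated library. Ikzf1, the gene that encodes Ikaros, was at 1229 CPM (counts per 1000000 of the TMM-scaled library total) in the Dox library and 120.5 CPM in the untreated library, the direction that the labels give. All 15 T-lineage markers were present, with a summed level of 10701 CPM in the Dox library and 7848 CPM in the untreated library. Of these 15 markers, 3 were higher and 0 lower by 2-fold or more, against 13.6% and 13.0% of all genes measured. Their median log2 fold (Dox over untreated) was 0.76, with a range from -0.16 for Thy1 to 2.63 for Cd7. The 2 most abundant, Thy1 and Lck, were slightly lower in the Dox library, and the other markers had ratios above 1. Thy1 was at 1919.7 CPM in the Dox library and 2145 CPM in the untreated library, and Lck at 1191 and 1279 CPM. Markers of macrophages, dendritic cells and red cells were mostly higher in the Dox library, and stromal and endothelial markers were not. Of 18 macrophage markers, 14 were measured (at least 1 CPM in either library). All 14 were higher by 2-fold or more, against 13.6% of all genes measured. Only 5 of the 14 had at least 1 CPM in the untreated library, and the rest entered through their Dox level. The 5 were all higher by that much. The 18 genes summed to 347 CPM in the Dox library and 72.8 CPM in the untreated library. Without the most abundant, Itgam, the sums were 166 and 12.2 CPM. Mpeg1 was at 96.8 CPM in the Dox library and 1.64 CPM in the untreated library, and Marco and Vsig4 were at 0 counts in both. Of 10 dendritic cell markers, 7 were measured and 6 of them higher by that much. All 6 entered through their Dox level, since only Bst2 had at least 1 CPM in the untreated library. Bst2, which is not restricted to dendritic cells, was at 122 CPM in the Dox library and 113 CPM in the untreated library. The other 9 genes summed to 49.3 CPM in the Dox library and 1.11 CPM in the untreated library, where 6 of the 10 were at 0 counts. Erythroid markers summed to 61.7 CPM in the Dox library and 8.38 CPM in the untreated library, and neutrophil markers to 11.2 and 5.68 CPM. Among the B-cell markers, Ighm was at 948 CPM in the Dox library and 346 CPM in the untreated library. The other 9 B-cell markers summed to 3.36 CPM in the Dox library and 0.644 CPM in the untreated library. Of 8 stromal and endothelial markers 4 were measured, 0 of them higher and 2 lower by 2-fold or more (median log2 fold, Dox over untreated, -0.54). Pecam1 was at 317 CPM in the Dox library and 166 CPM in the untreated library, Col1a2 at 32.8 and 76.4 CPM, and the other 6 genes summed to 7.57 and 11.1 CPM. Of these 6, the endothelial genes Cdh5, Kdr and Vwf had 2, 6 and 0 counts in the Dox library and 0, 0 and 2 in the untreated library. Myeloid cells express many of the genes described here, and the part of such cells in the differences was not tested. In a bulk library a change in the share of cells of a type and a change in RNA per cell cannot be told apart.

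Of the 10 genes, 5 were higher by 2-fold or more in the Dox library (Bcl3, Rel, Tnfaip3, Birc3 and Relb), 0 were lower by 2-fold or more, and 5 lay within 2-fold. Over the 12125 genes that reached 1 CPM in either library, here called measured, 13.6% were higher and 13.0% lower by that much. All 10 genes reached 1 CPM in both libraries, so none entered through its Dox level alone. Their median log2 fold (Dox over untreated, with a prior count of 2) was 0.84, against -0.01 over all genes measured and 0.76 over the 15 T-lineage markers. Each ratio is given with its 95% interval, computed from both counts; these intervals cover counting error only and treat PCR copies as independent molecules. The interval lay wholly above 2-fold for 4 of the 10 genes, against 9.11% of all genes, and wholly above 1 for 9 of them, against 38.7% of all genes, while 0 of the 10 lay wholly below 1, against 40.0% of all genes.

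**Figure D1:**
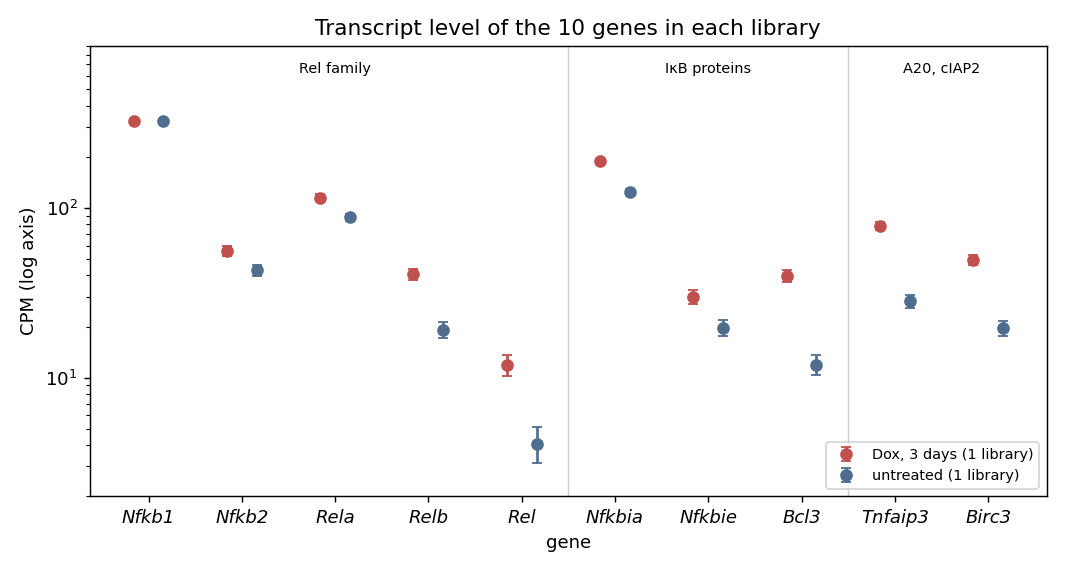
CPM on a log axis of the 10 genes in the Dox library (red, left) and the untreated library (blue, right); points are single libraries and bars are exact Poisson 95% intervals of the count. The bars overlap between libraries for Nfkb1 alone, at 324 and 326 CPM, and the gap is widest for Bcl3, at 39.7 CPM in the Dox library and 11.9 CPM in the untreated library.

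Among the Rel family, Rel and Relb differed most between the libraries, while Rela and Nfkb2 differed less and Nfkb1 did not differ beyond counting error. Rel (Entrez 19696; GRCm38 chromosome 11, 23736847 to 23770969), which encodes c-Rel, the lymphoid subunit used in activated T and B cells, had 193 counts in the Dox library and 69 in the untreated library, or 11.8 and 4.04 CPM. It was 2.92-fold higher in the Dox library (interval 2.20 to 3.90; log2 fold 1.52), the widest interval of the 10 because it had the fewest counts. Relb (Entrez 19698; chromosome 7, 19606217 to 19629438), the partner of Nfkb2 in the NIK-driven arm, was at 40.7 CPM in the Dox library and 19.2 CPM in the untreated library, from 666 and 328 counts. Its ratio was 2.12 (interval 1.85 to 2.42; log2 fold 1.08), so the 2-fold threshold lay inside the counting error. Rela (Entrez 19697; chromosome 19, 5637442 to 5648134), the main transactivating subunit of the rapid arm, was at 115 CPM in the Dox library and 88.0 CPM in the untreated library, from 1878 and 1502 counts. Its ratio of 1.30 (interval 1.22 to 1.40) was above 1 by more than counting error and far short of those of Rel and Relb.

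The precursor genes Nfkb1 and Nfkb2 encode long proteins that are processed to the small DNA-binding subunits and that, unprocessed, act as inhibitors. Nfkb1 (Entrez 18033; chromosome 3, 135584655 to 135691969) was the most abundant of the 10 in CPM, at 324 CPM in the Dox library and 326 CPM in the untreated library, from 5303 and 5570 counts. Its ratio was 0.992 (interval 0.956 to 1.03), so the libraries did not differ in it beyond counting error. Nfkb2 (Entrez 18034; chromosome 19, 46300994 to 46312400) was at 55.8 CPM in the Dox library and 42.9 CPM in the untreated library, from 914 and 732 counts, a ratio of 1.30 (interval 1.18 to 1.44). Of its 4584 exonic bases in the GENCODE annotation, 11.6% are shared with a long noncoding RNA and 6.52% with Psd, both on the opposite strand, and since the strand setting of the counting is not given, reads of these genes cannot be told apart there.

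**Figure D2:**
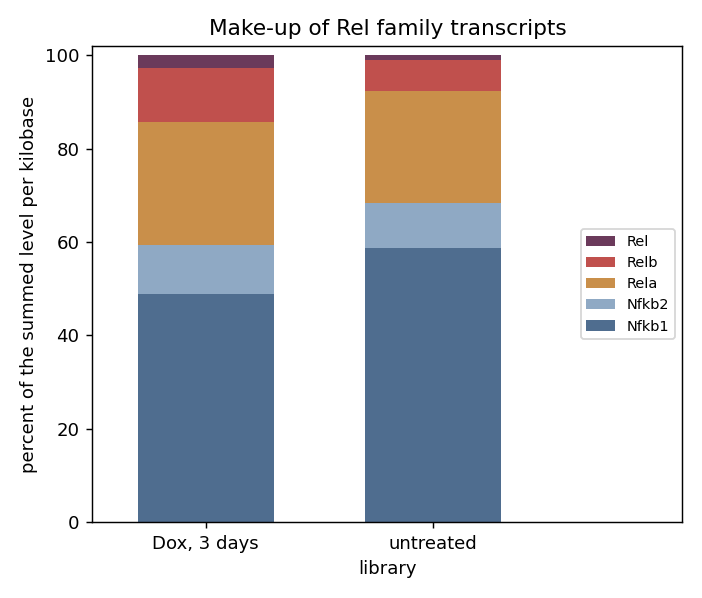
Percent of the summed Rel family level, in CPM per kilobase of the gene length given with the counts, taken by each of the 5 subunit genes in the Dox library (left bar) and the untreated library (right bar), 1 library each. The shares depend on the length used. Nfkb1 takes 48.9% in the Dox library and 58.7% in the untreated library, and Relb 11.5% and 6.46%.

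Per kilobase of the gene length given with the counts, the make-up of the family differed between the libraries. Levels of different genes compared in this way depend on that length, and the counting intervals do not cover it. Nfkb1 has 4118 bases by that length and 12061 exonic bases in the GENCODE annotation, Rel 2584 and 7466, and Rela 2709 and 3072. Shares with the GENCODE lengths would differ and were not computed, and the order of the genes may differ as well. Nfkb1 made up 48.9% of the summed level in the Dox library and 58.7% in the untreated library. Relb made up 11.5% in the Dox library and 6.46% in the untreated library, and Rel, the least abundant subunit in both, 2.83% and 1.16%. Rela (26.3% in the Dox library and 24.1% in the untreated library) and Nfkb2 (10.5% and 9.65%) differed less in proportion to their shares. Summed over Rel, Rela and Relb, the level was 65.3 CPM per kilobase in the Dox library and 42.8 in the untreated library, a ratio of 1.53, whereas Nfkb1 and Nfkb2 together were at 95.6 and 92.3 CPM per kilobase, a ratio of 1.04. Relb stood at about the level of Nfkb2 in the Dox library (18.5 and 17.0 CPM per kilobase, intervals 17.1 to 19.9 and 15.9 to 18.1) and below it in the untreated library (8.72 and 13.0 CPM per kilobase, intervals 7.80 to 9.71 and 12.1 to 14.0).

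Among the IkappaB proteins, the atypical member Bcl3 differed most. Bcl3 (Entrez 12051; chromosome 7, 19808462 to 19822824) encodes a nuclear IkappaB protein that binds dimers of the small subunits at DNA and can act as their coactivator. It had 651 counts in the Dox library and 203 in the untreated library, or 39.7 and 11.9 CPM, and was 3.34-fold higher in the Dox library (interval 2.85 to 3.93; log2 fold 1.73). This was the largest ratio of the 10, and 94.2% of all genes measured had a lower log2 fold. An antisense gene shares 6.51% of its exonic bases. Nfkbia (Entrez 18035; chromosome 12, 55489409 to 55492647), which encodes IkappaB alpha, the inhibitor that is degraded and resynthesised in each round of signalling, was at 188 CPM in the Dox library and 124 CPM in the untreated library, from 3078 and 2122 counts. Nfkbie (Entrez 18037; chromosome 17, 45555700 to 45563169), which encodes the related inhibitor IkappaB epsilon, was at 29.9 CPM in the Dox library and 19.7 CPM in the untreated library, from 490 and 336 counts. Both cytoplasmic inhibitors were higher to a like extent, with a ratio of 1.51 for Nfkbia (interval 1.43 to 1.60) and 1.52 for Nfkbie (interval 1.32 to 1.75). Their summed level per kilobase was 0.816 of that of the Rel family in the Dox library and 0.643 in the untreated library. Both values depend on the gene length given with the counts and were not computed with other lengths.

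The ubiquitin regulators were both more than 2-fold higher. Tnfaip3 (Entrez 21929; chromosome 10, 19000910 to 19015410) encodes the ubiquitin-editing protein A20, which shuts off signalling upstream of IKK and is lost in some lymphomas. It was at 78.2 CPM in the Dox library and 28.1 CPM in the untreated library, from 1280 and 479 counts, 2.79-fold higher (interval 2.51 to 3.10; log2 fold 1.47). Birc3 (Entrez 11796; chromosome 9, 7847468 to 7873205) encodes cIAP2, a ubiquitin ligase that promotes signalling from TNF receptors and, with Traf3, keeps NIK low. It was at 49.4 CPM in the Dox library and 19.5 CPM in the untreated library, from 809 and 333 counts, 2.53-fold higher (interval 2.23 to 2.89). Its neighbouring paralog Birc2, which encodes cIAP1 and could share reads with it, was at 57.9 CPM in the Dox library and 38.3 CPM in the untreated library.

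**Figure D3:**
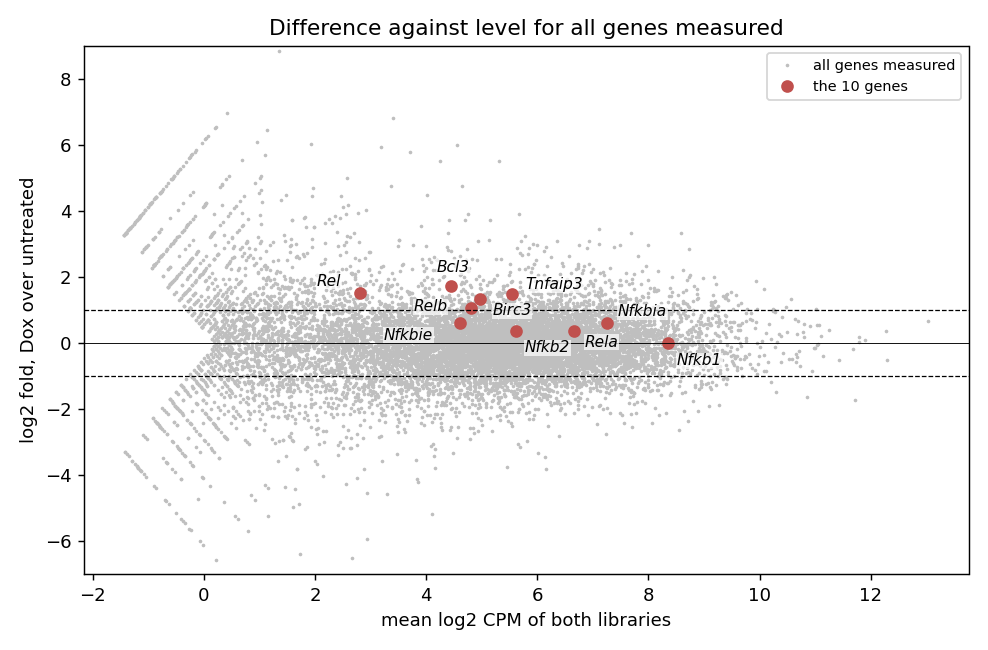
Log2 fold (Dox over untreated, prior count 2) against the mean log2 CPM of both libraries for the 12125 genes measured (grey) and the 10 genes (red); dashed lines mark 2-fold. The 10 genes span log2 folds of -0.01 for Nfkb1 to 1.73 for Bcl3, and the 2 most abundant, Nfkb1 and Nfkbia, lie within 2-fold.

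In order of level per kilobase, the untreated library began with Nfkb1 (79.2 CPM per kilobase) and Nfkbia (78.7), whose counting intervals overlapped, followed by Rela (32.5) and Nfkb2 (13.0). Relb, Nfkbie, Birc3, Bcl3 and Tnfaip3 came next, between 8.72 and 6.11 CPM per kilobase, each overlapping its neighbour in that order, and Rel was lowest at 1.56. In the Dox library Nfkbia (119 CPM per kilobase) stood above Nfkb1 (78.6) beyond counting error, Rela followed at 42.3, and Bcl3 came next at 21.7. Relb, Birc3, Tnfaip3 and Nfkb2 lay between 18.5 and 17.0 with overlapping neighbours, Nfkbie was at 12.4, and Rel was again lowest at 4.56. Bcl3 thus held place 4 in the Dox library and place 8 in the untreated library. These places rest on the gene length given with the counts, and the order with other lengths was not computed.

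The rest of the pathway was examined in 8 lists by role. In each list, the number higher by 2-fold or more is to be read against the 13.6% of all genes given above. Of the other 3 IkappaB genes, Nfkbiz, which encodes a nuclear IkappaB protein like Bcl3, was at 22.2 CPM in the Dox library and 8.85 CPM in the untreated library, a ratio of 2.51 (interval 2.07 to 3.06). Nfkbib, which encodes the cytoplasmic inhibitor IkappaB beta, had a ratio of 1.12 (interval 1.01 to 1.23) and Nfkbid, a nuclear IkappaB, 0.977 (interval 0.853 to 1.12). The nuclear members were therefore not uniformly higher.

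Among 12 genes of the IKK complex and its activating kinases, 2 were higher and 0 lower by 2-fold or more (median log2 fold 0.45). Map3k14, which encodes NIK, was at 50.4 CPM in the Dox library and 18.3 CPM in the untreated library, a ratio of 2.75 (interval 2.41 to 3.14), and Ikbke, an IKK-related kinase of antiviral signalling, was at 229 and 97.7 CPM. The IKK subunits themselves lay within 2-fold: log2 folds were 0.24 for Chuk (IKK alpha), 0.43 for Ikbkb (IKK beta) and 0.60 for Ikbkg (the scaffold NEMO), and the kinase gene Map3k3 also had 0.60. Traf3, the adaptor that targets NIK for destruction, was at 82.1 CPM in the Dox library and 83.6 CPM in the untreated library. In the list of 16 adaptors and ubiquitin ligases, 3 were higher and 0 lower by 2-fold or more (median 0.62), among them Irak2, a kinase below Toll-like receptors (1.19), and Rnf31, which encodes the catalytic subunit HOIP of the linear ubiquitin ligase (1.08). The third, named after its values were seen, was Traf1, with 64 counts in the Dox library and 18 in the untreated library. Traf5, an adaptor of TNF receptors, and Irak4, which acts above Irak2, each had a log2 fold of 0.87.

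Of 3 genes examined in the relay from the antigen receptor to IKK, 2 were higher and 0 lower by 2-fold or more (median 1.11). Prkcq, which encodes the T-cell protein kinase C theta that starts this relay, was at 826 CPM in the Dox library and 267 CPM in the untreated library, a ratio of 3.10 (interval 3.00 to 3.20). The paracaspase gene Malt1 was at 103 CPM in the Dox library and 47.9 CPM in the untreated library, a ratio of 2.16 (interval 1.98 to 2.35), so the 2-fold threshold lay just inside its counting error. Bcl10, which encodes the adaptor that binds the paracaspase, had a log2 fold of 0.70.

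Of 13 other genes of negative feedback, 3 were higher and 0 lower by 2-fold or more (median 0.45). Peli1, a ubiquitin ligase that restrains c-Rel in T cells, was at 148 CPM in the Dox library and 61.0 CPM in the untreated library, and Pdlim2, which promotes the destruction of nuclear Rela, at 85.3 and 41.4 CPM. Rnf11, a partner of A20, had 131 counts in the Dox library and 16 in the untreated library, where it lay below 1 CPM, so it entered through its Dox level. Of the 12 genes of this list with at least 1 CPM in the untreated library, 2 were higher by 2-fold or more, with a median of 0.44. Cyld, a deubiquitinase that opposes IKK activation, had a log2 fold of 0.90 and Tnip1, which encodes an A20-binding protein, 0.63.

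**Figure D4:**
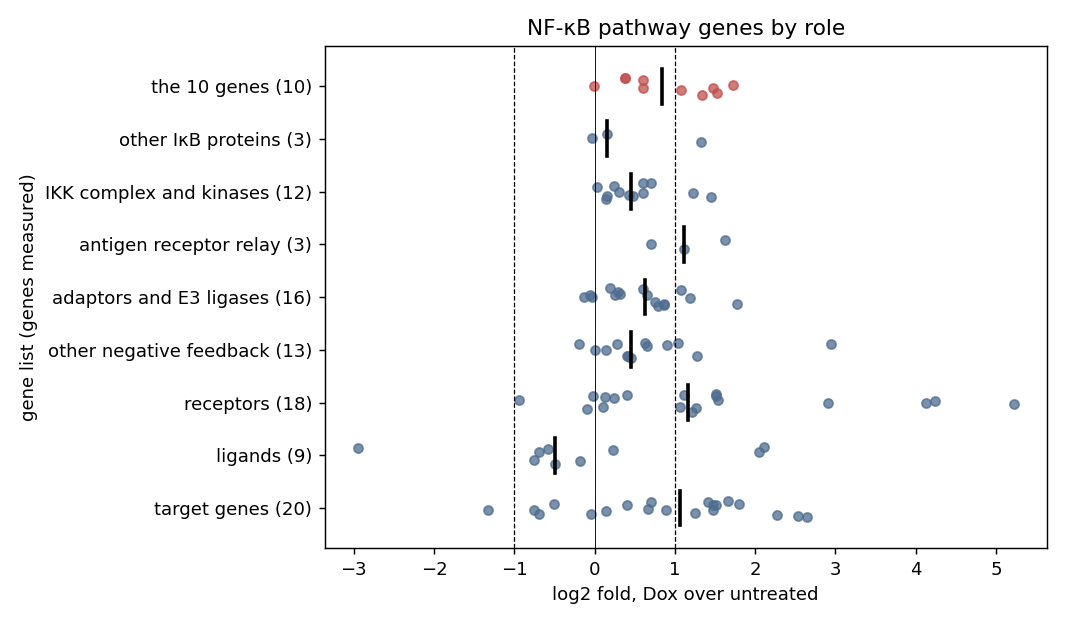
Log2 fold (Dox over untreated, prior count 2) of each measured gene in the 10-gene set (red) and in the 8 other pathway lists (blue), with the number measured in brackets, black bars for medians and dashed lines at 2-fold. Medians run from -0.49 for ligands to 1.16 for receptors; the folds of Tlr7 and Tlr9, at 0 counts in the untreated library, depend on the prior count.

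Ligands and receptors went several ways. Of 9 measured of 16 ligand genes, 2 were higher and 1 lower by 2-fold or more (median -0.49). Ltb, which encodes lymphotoxin beta, was at 445 CPM in the Dox library and 103 CPM in the untreated library, a ratio of 4.31 (interval 4.09 to 4.54), and its partner gene Lta at 16.2 and 3.81 CPM. Tnfsf10, which encodes the death ligand TRAIL, had a ratio of 0.619 (interval 0.566 to 0.677) and Tnfsf8, the CD30 ligand gene, 0.665 (interval 0.515 to 0.856). The gene lower by 2-fold or more, singled out afterwards, was Tnfsf9, with 4 counts in the Dox library and 46 in the untreated library. Of 18 measured of 22 receptor genes, 11 were higher and 0 lower by 2-fold or more (median 1.16). The 2 genes at 0 counts in the untreated library lay at the top of the list, so setting them at their bound could not change the median. That list holds innate receptors of myeloid cells, and of the 13 genes with at least 1 CPM in the untreated library, 6 were higher by that much, with a median of 0.41. Cd27, a costimulatory TNF receptor of T cells, was at 582 CPM in the Dox library and 200.2 CPM in the untreated library. Tlr1 was at 103 CPM in the Dox library and 36.1 CPM in the untreated library, its partner Tlr6 at 25.6 and 11.7 CPM, and Tnfrsf25, the death receptor for TL1A, at 20.8 and 8.61 CPM.

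Established NF-kappaB target genes were mixed. Of 29 listed, 20 were measured. Of these, 10 were higher and 1 lower by 2-fold or more, and 9 lay within 2-fold (median 1.07). Ratios of those 9 ran from 0.594 for Sod2 to 1.86 for Cflar. Of the 16 target genes with at least 1 CPM in the untreated library, 7 were higher by 2-fold or more, with a median of 0.78. Ccr7, the lymph node homing receptor, was at 461 CPM in the Dox library and 146 CPM in the untreated library, and Cd69, an early activation antigen, at 26.4 and 9.20 CPM. Gadd45b, a stress and survival gene, was at 12.5 CPM in the Dox library and 3.51 CPM in the untreated library, and Vcam1, an adhesion molecule of stromal and myeloid cells, at 16.5 and 2.75 CPM. The gene lower by 2-fold or more, named after its values were seen, was Irf4, a lymphoid transcription factor, at 19.7 CPM in the Dox library and 49.9 CPM in the untreated library, a ratio of 0.396 (interval 0.347 to 0.450). Most of these genes also respond to other factors, so the list describes transcripts and is no measure of NF-kappaB activity.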

How the data were processed

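RNA of sorted leukemia cells was sequenced, 1 library per condition. The authors deposited raw counts of reads for each Entrez gene, with a gene length column, made with CASAVA 1.8.2 and featureCounts on mm10, per the submitters' processing notes; aligner, strand setting, annotation and the treatment of reads with several alignments are not given in the sources used. The separate sample tables held the same counts as the series table (0 of 27179 genes differed). Symbols and coordinates came from RefSeq on GRCm38.p6, the assembly that mm10 names; 25275 identifiers matched, and exon overlaps came from GENCODE.

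Counts were scaled with TMM factors (0.994 for Dox and 1.01 for untreated) (edgeR 4.0.16, R 4.3.3). A log2 fold is the log2 CPM in Dox minus that in untreated, after adding a prior count of 2; ratios and CPM carry none. The filter kept genes reaching 1 CPM in either library. Ratio intervals are exact 95% Clopper-Pearson intervals from the conditional binomial distribution, and level intervals exact Poisson; 3 counts correspond to 0.183 CPM in the Dox library and 0.176 CPM in the untreated library. With 1 library per condition no test was made. The fold calculation was tested on simulated counts. Python 3.11.15, pandas 2.3.3, scipy 1.17.1 and DESeq2 1.42.0 (size factors only) were also used.

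The 10 genes and the lists were chosen with earlier results of these data known. Genes named are all 10; Ikzf1; of each pathway list up to 4 with the largest absolute log2 fold among those with at least 5 CPM in 1 library, plus core kinases and inhibitors; and of each marker list the 2 most abundant. Others, such as Birc2, Traf1, Tnfsf9, Irf4, Sod2, Cflar and Cd7, were chosen after their values were seen. Of the marker lists, some most abundant genes are given only within sums. Some genes of the pathway lists are not reported here and were left out of the list counts.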

Additional observations from a re-analysis of the deposited data

How the results depend on the processing

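At a 4-fold threshold 0 of the 10 genes were higher, against 4.46% of all genes. Under the other alternatives the count of 10 genes higher was 5 with total-count, DESeq2 and upper quartile scaling, without mitochondrial, ribosomal protein and haemoglobin genes, with prior counts of 0.5 and 5, with minimum levels of 1 count and of 5 CPM, with the deeper library thinned, and with a trend on gene length removed, a setting chosen after seeing the data; it was 7 at 1.5-fold (23.6% of all genes) and 4 with the interval wholly beyond 2-fold. The count lower was 0 throughout. The median log2 fold ranged from 0.82 to 0.91. Of the log2 folds of single genes under these alternatives, 98 stayed within the counting interval and 2 left it, both with the length trend removed: Nfkbia at 0.71 and Nfkb1 at -0.09. Among the pathway lists, these counts moved by over 1.5 times. Limited to 5 CPM, the receptor list had 5 genes higher in place of 11 and the ligand list 0 lower in place of 1. Of all genes at that level, 10.7% were higher and 11.6% lower. With the interval rule, 6 receptor genes were higher, 1 adaptor or ubiquitin ligase gene in place of 3, and 1 gene of the antigen receptor relay in place of 2. The share of all genes higher by that rule was 9.11%. With the length trend removed, 1 relay gene was higher and 1 receptor gene lower in place of 0, against 13.4% of all genes higher and 12.5% lower. At 4-fold, the genes higher were 4 receptor, 3 target and 1 negative feedback gene and 0 in the IkappaB, IKK, relay and adaptor lists. At that threshold 0 target genes were lower. Of all genes, 4.46% were higher and 3.07% lower by 4-fold. At 1.5-fold, 5 IKK, 9 adaptor and 6 negative feedback genes were higher, and 3 ligand, 3 target and 1 receptor gene lower. Of all genes, 23.6% were higher and 24.1% lower by 1.5-fold. Shares of the Rel family depend on division by length: without it Nfkb1 took 59.2% of counts in the Dox library and 67.9% in the untreated library. Shares and order with the exonic lengths of GENCODE were not computed. Each condition has 1 library, so no library could be left out. No paired analysis was possible because each condition has 1 library. Depth limits Rel most, with 193 counts in the Dox library and 69 in the untreated library.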

Other observations

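The kappaB consensus was counted in the same way in the promoter windows of the other pathway lists, as a description of sequence that did not use expression. Of genes with a RefSeq window, a match was present in 5 of 10 other negative feedback genes, 9 of 22 target genes, 5 of 19 receptor genes, 2 of 14 adaptor and ubiquitin ligase genes, 1 of 9 IKK complex and kinase genes, 1 of 13 ligand genes, 1 of 2 other IkappaB genes and 1 of 2 genes of the antigen receptor relay, against 9.55% of all genes with a window and 12.1% of those measured. Among the 10 genes, those with a match in at least 1 window were Bcl3, Rel, Tnfaip3, Nfkbie, Nfkbia and Nfkb2. Their ratios (Dox over untreated) were 3.34, 2.92, 2.79, 1.52, 1.51 and 1.30, in that order. Nfkb2 had matches in all 3 of its windows. The genes with a window but no match were Birc3, with a ratio of 2.53, and Rela, with a ratio of 1.30. Whether a match goes with a higher ratio was not tested.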
